A study of Oryza sativa with 4 samples.

Results

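The Aux/IAA genes encode short-lived nuclear repressors of auxin response. In the textbook account, an Aux/IAA protein binds auxin response factors (ARFs) on their target promoters and keeps those genes silent. Auxin then brings the repressor to a TIR1/AFB receptor, an F-box protein that marks it for the proteasome. Many Aux/IAA genes are themselves early auxin targets, which makes them part of a negative feedback loop. The genes were taken here by their deposited name, as every locus whose name starts with iaa and a number. This gave 30 of the 57995 loci in the files.

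Rice seedlings (Oryza sativa) of the genotype Dongjin, a japonica cultivar, were grown for 7 days in 16 h of light and 8 h of dark at 23 °C. Control plants were irrigated with the buffer alone (1 mM HCl), and treated plants with 5 mM CysNO. CysNO, S-nitrosocysteine, is a small S-nitrosothiol that releases nitric oxide and can pass it on to protein thiols. Poly(A) RNA of leaves was sequenced in 2 control and 2 CysNO libraries, with a number but no source plant given for each. The p-values therefore measure only the spread between these libraries, which may be technical. The labels name no transgene and no treatment with cysteine alone, so nitric oxide and the cysteine that carries it cannot be told apart. HCl is given for the control plants only and cannot be told apart from the absence of CysNO.

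The unit is FPKM, a fragment number divided by transcript length and by the mapped fragments of its library, so that levels of different genes can be set side by side per length. Over all loci the libraries summed to 687469 to 732401 FPKM. The total depth is unknown, since the deposited values are not counts, and the ratios of low values put the libraries at 0.828 (CysNO 1) to 1.09 (CysNO 2) of the depth of control 1. The leaf label was checked on chlorophyll a/b binding and Rubisco small subunit genes. CAB2R stood between 1280.3 and 2320.2 FPKM, CAB1R between 256 and 436 FPKM and RBCS-C between 430.1 and 1122 FPKM in the 4 libraries. All 5 leaf loci of the list had CysNO means below their control means, at ratios from 0.466 (LOC_Os12g19381, with 868 and 611 FPKM in control and 327 and 363 FPKM in CysNO) to 0.821 (CAB1R). In 3 of them, CAB2R, LOC_Os12g19381 and LOC_Os12g19470, both CysNO libraries were below both controls. Of the 5, 0 passed the test used below, and LOC_Os12g19381 was lower at an unadjusted p of 0.0173 (limma). Over all tested loci, both CysNO libraries were below both controls at 24.9%. In the same test 0.956% of them were called lower, and 8.39% were lower at an unadjusted p under 0.05 (limma). The shoot meristem genes OSH1 and OSH15 stood between 1.17 and 6.68 FPKM, OSH1 with a CysNO mean 0.37 times its control mean and OSH15 with overlapping groups. Whether these marker levels have a part in the Aux/IAA values was not tested. In bulk leaf RNA, fewer cells of a type and less RNA per cell cannot be told apart.

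Of the 30 Aux/IAA loci, 27 reached 1 FPKM in 2 or more libraries and were tested. In limma's moderated test on log2(FPKM + 1), 2 of these rose after CysNO (adjusted p under 0.05 over all 21123 tested loci), 0 fell and 25 did not pass. The 2 that rose are iaa9 and iaa20, and both were among the lowest members in control leaves. The 2 called members make 7.41% of the 27, where 3.27% of all tested loci were called higher and 0.956% lower. Both had each control under 1 FPKM and entered the test only through the CysNO libraries in which they are high, so nothing is read from that share. At an unadjusted p under 0.05 in the same limma fit, 6 members were higher and 3 lower, where 9.66% of all tested loci were higher and 8.39% lower. The 6 include iaa9, iaa20 and iaa26, each of which entered the test only through CysNO. Nothing is read from that count either. Among better expressed members, iaa2, iaa12 and iaa19 had CysNO means 2.18 to 2.27 times their control means without passing. For iaa4, iaa8, iaa16 and iaa25 the control means were 2.68 to 3.72 times the CysNO means, also without passing. The summed level of the family was close between the groups, with a log2 ratio of 0.07.

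**Figure D1:**
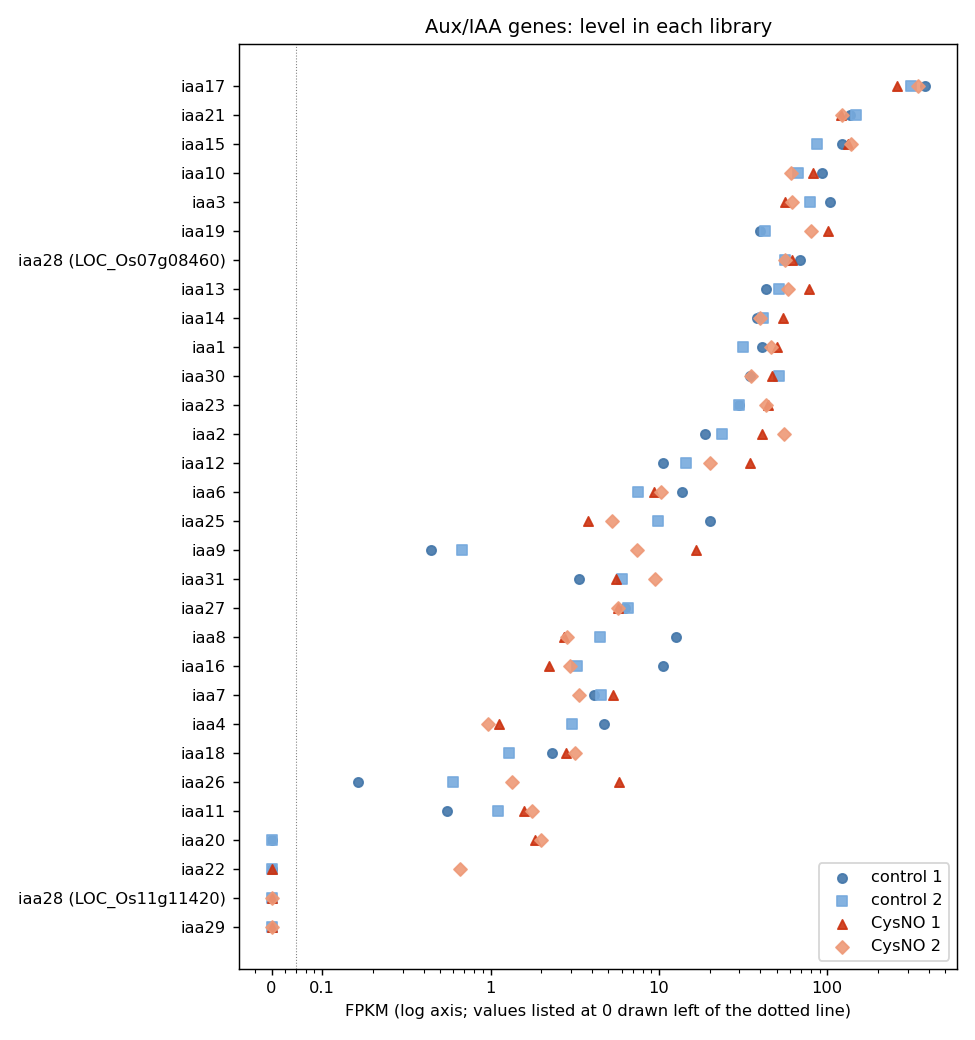
FPKM of each of the 30 Aux/IAA loci (rows, ordered by the mean of the 4 libraries) on a log axis, 1 point per library; values listed at 0 are drawn left of the dotted line. The members span from iaa17 at 260.3 to 379.5 FPKM down to loci listed at 0, and for iaa9 both CysNO points lie far to the right of both control points.

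The order of levels was led by iaa17 (LOC_Os05g14180). It read 379.5 and 316 FPKM in control 1 and control 2 and 260.3 and 347 FPKM in CysNO 1 and CysNO 2. The groups overlapped, because CysNO 2 lay between the controls. Its log2 fold change was -0.20 ± 0.33 (SE; limma, adjusted p = 0.838), with a 95% interval from -0.97 to 0.56. Next came iaa21 (LOC_Os06g22870), at 137 and 148 FPKM in control and 121 and 122 FPKM in CysNO, where both CysNO libraries were below both controls. The difference did not pass (log2 fold change -0.23 ± 0.27, SE; limma, adjusted p = 0.766). The third, iaa15 (LOC_Os05g08570), read 122 and 86.4 FPKM in control and 132 and 138 FPKM in CysNO, and did not pass either (log2 fold change 0.39 ± 0.29, SE; limma, adjusted p = 0.586). iaa21 read above iaa15 in both controls and below it in both CysNO libraries, so their order over the 4 libraries depends on the group. Whether that order differs between the groups was not tested. iaa17 was above both in every library.

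The next in order were iaa10, iaa3 and iaa19. iaa10 (LOC_Os02g57250), whose product is bound by a protein of rice dwarf virus, read 93.0 and 66.7 FPKM in control and 81.9 and 61.3 FPKM in CysNO, an interleaved set. iaa3 (LOC_Os01g13030) read 104 and 79.4 FPKM in control and 56.0 and 62.0 FPKM in CysNO. Both CysNO libraries of iaa3 were below both controls, and the difference did not pass (log2 fold change -0.62 ± 0.27, SE; limma, adjusted p = 0.293). iaa19 (LOC_Os05g48590) read 40.1 and 42.4 FPKM in control and 101 and 79.9 FPKM in CysNO, and is taken up below with the members of like difference.

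The family as a whole summed to 1240.3 and 1088 FPKM in the controls and to 1229 and 1222 FPKM in CysNO. The control libraries thus bracket both CysNO libraries. The means were 1164 ± 108 FPKM (SD, n = 2) in control and 1226 ± 4.69 FPKM (SD, n = 2) in CysNO, a log2 ratio of 0.07. The smallest p that an exact two-sided permutation test of 2 against 2 libraries can give is 0.333, so no test was made of sums. Relative to all FPKM of its library, the family took 0.178% and 0.157% in control and 0.168% and 0.178% in CysNO. Within the pool, iaa17 held 30.6% and 29.1% in control and 21.2% and 28.4% in CysNO, both below the controls, with CysNO 1 well apart from CysNO 2. Leaving iaa17 out, the sum was 861 and 772 FPKM in control and 969 and 875 FPKM in CysNO, a log2 ratio of 0.18. iaa9 and iaa20 together made 0.0359% and 0.0624% of the pool in control and 1.51% and 0.766% in CysNO, so the members that rose remained a small part of it.

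**Figure D2:**
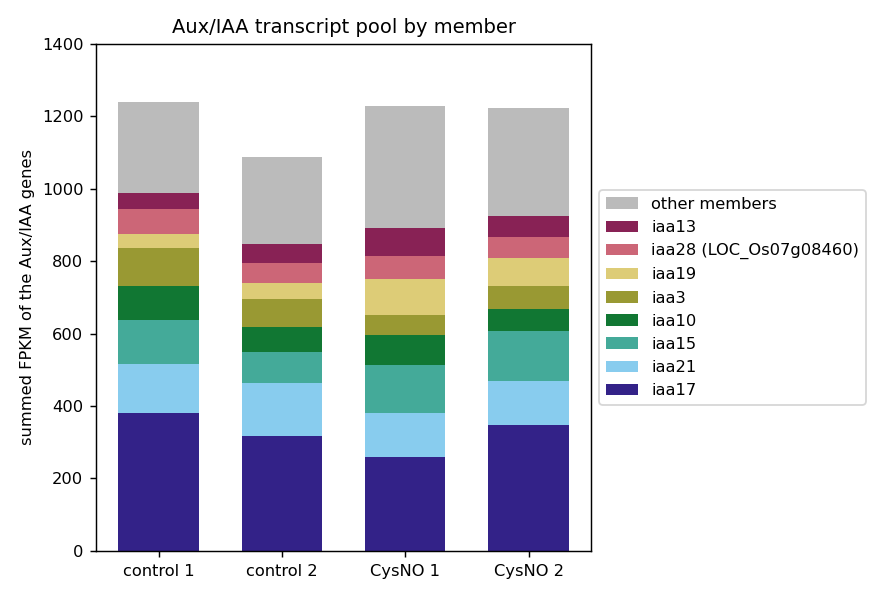
Summed FPKM of the Aux/IAA loci in each library, stacked by member, with the 8 members of highest mean drawn apart and the others in grey. The columns reach 1240.3, 1088, 1229 and 1222 FPKM from left to right, and the iaa17 block is smallest in CysNO 1.

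iaa9 (LOC_Os02g56120, chromosome 2, bases 34342713 to 34343987, plus strand) had the largest log2 fold change of the tested members. Its constitutive expression in Arabidopsis has been reported to alter the response of roots to gravity. It read 0.445 and 0.679 FPKM in the controls and 16.7 and 7.38 FPKM in CysNO. The groups lay far apart, and CysNO 1 was above CysNO 2 by 1.08 on the log2 scale, against -0.22 between the controls. The means were 0.562 ± 0.165 FPKM and 12.0 ± 6.56 FPKM (SD, n = 2), a ratio of 21.4. The log2 fold change was 2.96 ± 0.41 (SE; limma, adjusted p = 0.0116), on a scale that understates the change of low genes. It kept its direction in every fit listed in the closing part. The call was lost without either CysNO library, where the log2 fold change was 2.43 without CysNO 1 and 3.50 without CysNO 2 (limma, adjusted p = 0.249 and 0.196). It was also lost with no filter on low values and with the replicate number as a block (limma, adjusted p = 0.129 and 0.0727).

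iaa20 (LOC_Os06g07040, chromosome 6, bases 3341424 to 3345319, minus strand) read 1.84 and 1.99 FPKM in the CysNO libraries and was listed at 0 in each control. It passed (limma, adjusted p = 0.0398), and no fold is given because both controls are listed at 0. With the counting program not given in the sources, a listed 0 may also be a failed estimate. The call did not survive any change of scaling or pseudocount, with adjusted p of 0.0696 with median centring, 0.0766 with quantile normalization and 0.0726 with a pseudocount of 0.1 (limma). It was also lost with no filter on low values and with the replicate block (limma, adjusted p = 0.0926 and 0.139), and when any 1 library was left out, with adjusted p from 0.0505 to 0.296 (limma). The RefSeq gene table gives the name IAA20 also to a gene of chromosome 1, the one that the files call iaa4, so the name does not by itself say which gene an earlier study worked on.

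iaa26 (LOC_Os09g35870), whose product has been placed in the ethylene response of rice roots, had the largest standard error of the tested members. It read 0.163 and 0.601 FPKM in control and 5.80 and 1.34 FPKM in CysNO. All CysNO values were above all control values, yet CysNO 1 and CysNO 2 differed by 1.54 on the log2 scale, about as much as the groups did. The log2 fold change of 1.55 ± 0.52 did not pass (SE; limma, adjusted p = 0.169). iaa9, iaa20 and iaa26 are the 3 tested members with both controls under 1 FPKM. They were tested only because of their CysNO values, so a difference in that direction was built into their selection.

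Among the better expressed members, iaa2, iaa19 and iaa12 had CysNO means of 2.27, 2.20 and 2.18 times the control means. iaa2 (LOC_Os01g09450) read 18.9 and 23.6 FPKM in control and 40.9 and 55.6 FPKM in CysNO. Its log2 fold change of 1.14 ± 0.28 had a 95% interval from 0.48 to 1.80 and did not pass over all loci (SE; limma, adjusted p = 0.0747). For iaa19 the log2 fold change was 1.11 ± 0.26 (SE; limma, adjusted p = 0.0675), with controls close together and both CysNO values well above them. iaa12 (LOC_Os03g43410), a gene linked in rice to the angle of the leaf blade, read 10.6 and 14.5 FPKM in control and 34.6 and 20.1 FPKM in CysNO. The groups did not overlap, and the difference did not pass (log2 fold change 1.03 ± 0.34, SE; limma, adjusted p = 0.157). These 3 members were called in no fit other than the one with crossed replicate numbers.

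Smaller log2 fold changes in the same direction, with groups apart, were read for iaa1, iaa11, iaa13, iaa15, iaa18 and iaa23, none of which passed. For the low iaa11 the CysNO mean was 2.02 times the control mean, a change that this scale understates. iaa31 and iaa14 were also positive, at 0.58 and 0.23, with overlapping groups. iaa23 (LOC_Os06g39590), needed in rice to keep the root quiescent centre, was the tightest of these members, with 29.8 and 29.7 FPKM in control and 44.7 and 43.5 FPKM in CysNO. Its log2 fold change was 0.55 ± 0.24, with a 95% interval from -0.02 to 1.13 (SE; limma, adjusted p = 0.295). iaa13 (LOC_Os03g53150), in which a stabilizing mutation reduces lateral roots, read 43.1 and 51.6 FPKM in control and 77.4 and 58.6 FPKM in CysNO (log2 fold change 0.50; limma, adjusted p = 0.411). It shares 1474 bases with a locus on the opposite strand, LOC_Os03g53140, which read between 1.78 and 3.49 FPKM. With no statement on strand in the sources, reads of these overlapping loci may not be told apart. No other member was overlapped by a locus of the files.

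**Figure D3:**
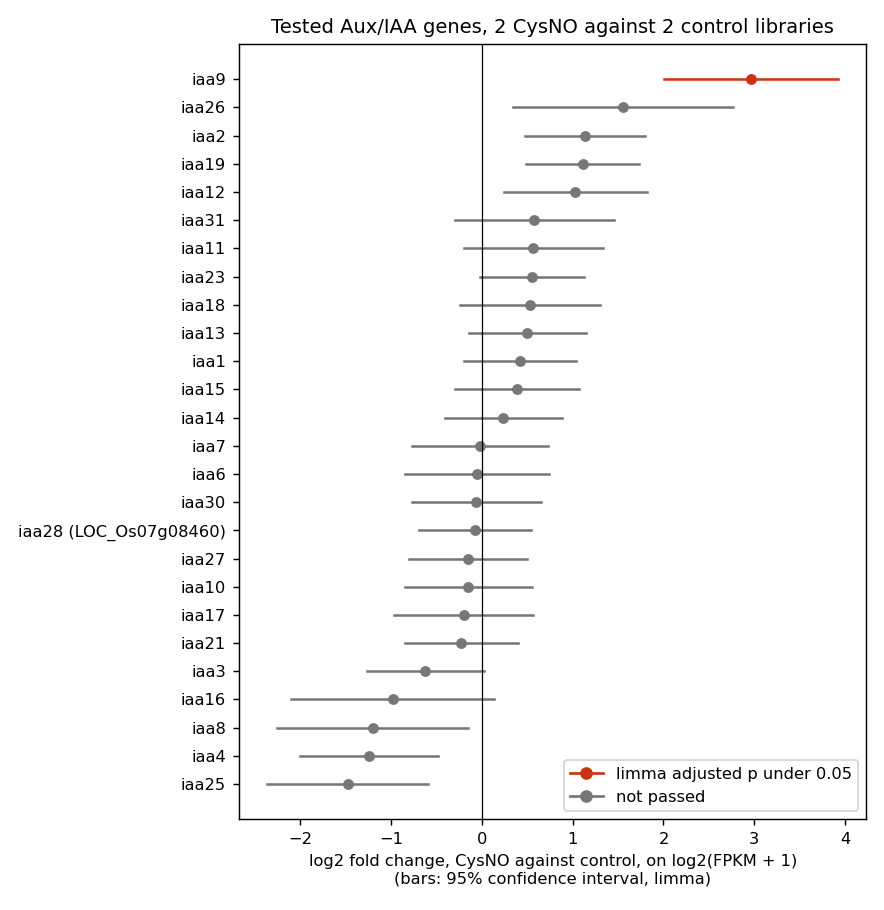
Log2 fold change of the tested Aux/IAA loci, CysNO against control, with 95% confidence intervals; iaa20 is left out because both of its controls are listed at 0. iaa9 is the 1 drawn member that passed, at 2.96, and the intervals of iaa2, iaa19, iaa12 and iaa26 lie above 0 while those of iaa4, iaa8 and iaa25 lie below it, without passing over all loci.

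The lower members were iaa25, iaa4, iaa8 and iaa16, with control means 2.68 to 3.72 times the CysNO means. iaa25 (LOC_Os08g01780) had the most negative log2 fold change. It read 20.2 and 9.90 FPKM in control and 3.78 and 5.25 FPKM in CysNO, with no overlap (log2 fold change -1.47 ± 0.38, SE; limma, adjusted p = 0.0829). iaa4 (LOC_Os01g18360) read 4.71 and 3.06 FPKM in control and 1.13 and 0.964 FPKM in CysNO, also with no overlap (log2 fold change -1.24 ± 0.32, SE; limma, adjusted p = 0.0875). iaa8 (LOC_Os02g49160) read 12.7 and 4.45 FPKM in control and 2.72 and 2.83 FPKM in CysNO, so that control 1 stood apart from the other 3 libraries (log2 fold change -1.20 ± 0.45, SE; limma, adjusted p = 0.213). iaa16 (LOC_Os05g09480) had the same shape, with 10.6 and 3.28 FPKM in control and 2.21 and 2.95 FPKM in CysNO (log2 fold change -0.98 ± 0.48, SE; limma, adjusted p = 0.345).

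In these 4 members control 1 was above control 2, by 1.44 for iaa16, 1.33 for iaa8, 0.96 for iaa25 and 0.49 for iaa4 on the log2 scale. iaa6 (LOC_Os01g53880), reported in the drought response of rice, shared the gap between controls (13.8 and 7.48 FPKM) but read 9.37 and 10.3 FPKM in CysNO, between them. All 5 leaf loci were also higher in control 1 than in control 2, by 0.14 (CAB2R) to 1.21 (LOC_Os12g19470) on the log2 scale. Without control 2, iaa8, iaa16 and iaa25 were called lower, at log2 fold changes of -1.86, -1.70 and -1.95 (limma, adjusted p = 0.0223, 0.0371 and 0.0185), in a fit where 2.29% of all tested loci were called lower. Without control 1, 0 members were called lower. Over the whole family control 1 was above control 2 in 13 members and below it in 13.

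**Figure D4:**
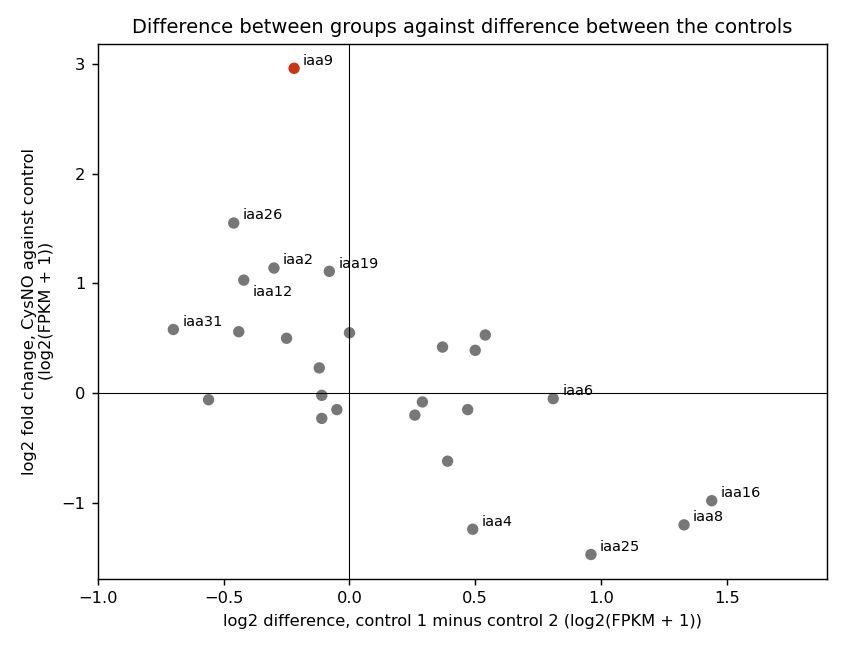
Log2 fold change of each tested member except iaa20 (vertical) against the log2 difference between control 1 and control 2 (horizontal), both on log2(FPKM + 1). The control values enter both axes. iaa8, iaa16 and iaa25 lie at the lower right, low in CysNO and higher in control 1 than in control 2. iaa9, iaa26, iaa2, iaa12 and iaa19 lie high, with control differences between -0.46 and -0.08.

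The groups were apart in 19 tested members, with 7 lower in CysNO and 12 higher, which is 25.9% and 44.4% of the 27 tested. Over all tested loci the groups were apart at 24.9% in the lower and at 21.5% in the higher direction. The members' median log2 fold change was 0.23, against -0.01 for all tested loci, and their middle 50% lay between -0.18 and 0.57, against -0.33 and 0.30. An absolute log2 fold change of 1 or more was reached by 9 of 27 members, 6 of them higher and 3 lower, or 33.3%, against 12.0% of all tested loci. The 3 members that entered the test through CysNO alone are among the 6 and among the 12. iaa11, at 0.549 FPKM in control 1, met the filter only with the help of the CysNO libraries and is also among the 12. iaa4, at 0.964 FPKM in CysNO 2, met it only with the help of the controls and is among the 3 and the 7. The values of all these members are also part of the median and of the quartiles. Nothing is therefore read from these differences between the members and all tested loci.

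The groups overlapped in 8 tested members, among them iaa14 and iaa7 as well as the abundant iaa17, iaa10 and iaa30. iaa7 (LOC_Os02g13520) had a log2 fold change of -0.02 ± 0.32, with a 95% interval from -0.77 to 0.73, which leaves room for changes of some size in either direction. Outside these 8, iaa27 (LOC_Os11g11410) was among the steadiest, at 6.30 and 6.57 FPKM in control and 5.70 in each CysNO library (log2 fold change -0.15, limma, adjusted p = 0.862). Both of its CysNO libraries were below both controls. 

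The members that lie next to each other were also set side by side. iaa27, iaa28 (LOC_Os11g11420) and iaa29 (LOC_Os11g11430) follow each other on the same strand of chromosome 11, with gaps of 6182 and 6856 bases and no other locus between. iaa27 was expressed at the level above, while its neighbours iaa28 and iaa29 were listed at 0 in all 4 libraries. iaa30 and iaa31 on chromosome 12 point away from each other across a gap of 9319 bases. iaa30 (LOC_Os12g40890) read 34.7 and 51.5 FPKM in control and 46.9 and 35.1 FPKM in CysNO, and iaa31 (LOC_Os12g40900) read 3.35 and 6.06 FPKM and then 5.54 and 9.46 FPKM. Both pairs of values overlap between groups, and iaa30 was the higher of the pair in every library. iaa11 and iaa12 on chromosome 3 are the other divergent pair, 10532 bases apart. iaa11 (LOC_Os03g43400), in which a stabilizing mutation blocks lateral root initiation in rice, stayed low, at 0.549 and 1.10 FPKM in control and 1.57 and 1.77 FPKM in CysNO (log2 fold change 0.56 ± 0.33, SE; limma, adjusted p = 0.446). In both genes of this pair every CysNO value was above every control value, and neither passed. iaa11 met the filter only with the help of its CysNO values.

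The 3 members that were not tested are iaa29, the iaa28 of chromosome 11 and iaa22 (LOC_Os06g24850), which was listed at 0 in 3 libraries and at 0.655 FPKM in CysNO 2. The name iaa28 is carried by 2 loci of the files. The other, LOC_Os07g08460, lies on chromosome 7 and read 68.7 and 56.0 FPKM in control and 61.6 and 56.0 FPKM in CysNO (log2 fold change -0.08; limma, adjusted p = 0.934). The RefSeq gene table has an Aux/IAA gene of like span on chromosome 7 under the name IAA24, with 1362 bases against 1365 in the files, and none named IAA28 there. Of the 30 loci, 26 have their symbol on the same chromosome of that table, 23 of them with a span within 10%. The names of iaa1, iaa8 and iaa20 are given there to a gene of another chromosome as well.

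The other genes of auxin response were read from lists by name, or by locus where the gene table places the same name on the same chromosome with a span within 10%. The ARFs, among them the partners that Aux/IAA proteins repress, had 22 such loci, with ARF11, ARF16 and ARF20 left out by that match. Of the 22, 21 were tested, 1 rose, 0 fell and 20 did not pass, with a median log2 fold change of -0.10. At an unadjusted p under 0.05 (limma), 1 was higher and 4 were lower. Over all tested loci the shares were 3.27% higher and 0.956% lower adjusted, and 9.66% and 8.39% unadjusted. ARF9 (LOC_Os04g36054) was the 1 that rose, from 21.9 and 19.1 FPKM in control to 54.1 and 54.9 FPKM in CysNO, where replicates sat close and the groups far apart (log2 fold change 1.37 ± 0.25, SE; limma, adjusted p = 0.0297). The call also held with median centring and quantile normalization (limma, adjusted p = 0.0467 and 0.0484), and it was lost with no filter, with the replicate block (limma, adjusted p = 0.104 and 0.129) and when any 1 library was left out (limma, adjusted p from 0.0602 to 0.285). ARF10 (LOC_Os04g43910) had the most negative value, with 12.2 and 16.9 FPKM in control and 3.14 and 5.80 FPKM in CysNO, and did not pass (log2 fold change -1.54 ± 0.35, SE; limma, adjusted p = 0.0566). ARF4 was the most abundant, at 86.2 and 68.4 FPKM in control and 125 and 97.3 FPKM in CysNO (limma, adjusted p = 0.414). As a sum the 22 matched ARF loci read 485 and 447 FPKM in control and 509 and 444 FPKM in CysNO, which overlap.

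**Figure D5:**
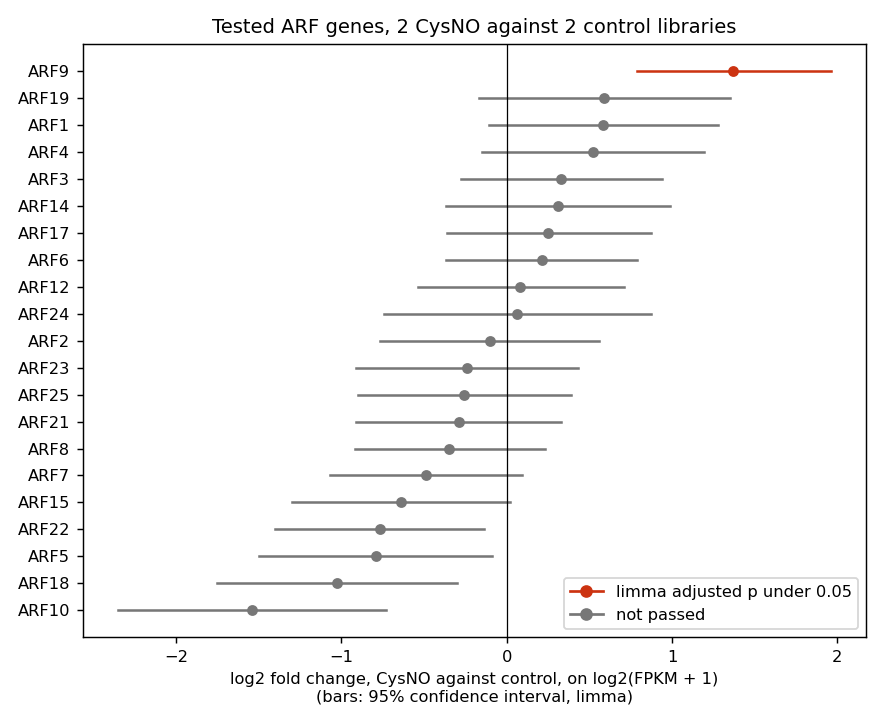
Log2 fold change of the 21 tested ARF loci, CysNO against control, with 95% confidence intervals. ARF9 at 1.37 is the 1 that passed, and ARF10 at -1.54 is the lowest.

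The remaining auxin lists hold targets and transport, and their counts stand beside the same shares of all tested loci, 3.27% called higher and 0.956% lower, or 9.66% and 8.39% unadjusted. Of 20 tested SAUR genes, which are early auxin-induced genes tied to cell expansion, 5 rose and 0 fell (limma; 7 higher and 4 lower at an unadjusted p under 0.05). saur23 read 0.711 and 1.68 FPKM in control and 62.1 and 85.6 FPKM in CysNO (limma, adjusted p = 0.00148). saur11 (LOC_Os02g42990), the most abundant of the 5, read 65.4 and 81.8 FPKM in control and 181 and 234 FPKM in CysNO (log2 fold change 1.48 ± 0.29, SE; limma, adjusted p = 0.0368). The others, SAUR3, saur15 and saur16, each had 1 control listed at 0 and the other between 1.01 and 1.97 FPKM, with CysNO values between 4.84 and 12.1 FPKM (limma, adjusted p from 0.0301 to 0.0438). In 4 of the 5, all but saur11, 1 control was under 1 FPKM, so these loci met the filter only with the help of the CysNO libraries in which they are high. The same holds for saur10, at 0.965 FPKM in control 1, which is among the 7 higher unadjusted. Nothing is read from the SAUR counts against the shares of all tested loci. Of 9 tested GH3 genes, whose products join amino acids to acids such as auxin or jasmonate, 2 rose and 0 fell (limma; 3 higher and 0 lower at an unadjusted p under 0.05). gh3.8 read 5.86 and 11.3 FPKM and then 73.4 and 40.0 FPKM (limma, adjusted p = 0.0168). gh3.5, which the gene table also names JAR1, read 17.7 and 19.9 FPKM and then 47.3 and 43.3 FPKM (limma, adjusted p = 0.042). gh3.6, also among the 3 higher unadjusted, stood at 0.396 FPKM in control 1 and met the filter only with the help of CysNO. Nothing is read from the GH3 counts either. Of these SAUR and GH3 calls, that of saur23 alone also held with both median centring and quantile normalization (limma, adjusted p = 0.0146 and 0.0111). Of the efflux carriers, only PIN1A, PIN5A and PIN9 were matched, while PIN5B was left out by the check on chromosome and span. Of these, 2 were tested and neither passed, which says nothing of the carriers as a family. PIN1A (LOC_Os02g50960) read 65.2 and 59.6 FPKM in control and 107 and 126 FPKM in CysNO (log2 fold change 0.89 ± 0.26, SE; limma, adjusted p = 0.125), while PIN5A had a log2 fold change of -0.54. Receptor, influx carrier and synthesis genes were not analysed here.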

How the data were processed

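Leaf poly(A) RNA was made into TruSeq libraries with random hexamers and read as 100 bp pairs, per the labels' protocols, which speak of triplicate leaf samples where 2 libraries a group are at hand. The deposited FPKM, 1 for each locus in each file per the file headers, are the authors' own. Bowtie 0.12.2 and mm8, a mouse build that cannot belong to rice loci, stand in the submitters' processing notes. The counting program, annotation release, strand setting and build of the coordinates are not given in the sources, so how reads of similar Aux/IAA genes were divided is unknown. Positions are those of the files.

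Tested were 21123 loci with 1 FPKM or more in 2 or more libraries, on log2(FPKM + 1), with limma 3.58.1 (R 4.3.3), a mean-variance trend, two-sided tests and Benjamini-Hochberg adjustment over every tested locus, at a threshold of 0.05. The fit had 2 residual and 5.36 prior degrees of freedom. The code was tested on simulated data. Since FPKM are not counts, count models and counting intervals were not used. Relative depth is the most frequent ratio to control 1 over 493 low loci. Members, lists and tests were chosen with earlier results of these data known. FPKM of each library are given for members called in any fit, the 6 most abundant, the 3 most positive and 3 most negative, and neighbours. Of each other list they are given for called members (at most 5) or else the most abundant, with SAUR3, saur15 and saur16 as ranges. Fold changes and adjusted p are given for most but not all of these. ARF4, ARF10, PIN5A and other members named beside these were added after their values were seen. Names of ARF, PIN, CAB, RBCS-C and OSH15 loci rest on general knowledge checked against the gene table of the assembly ASM3414082v1. Alternatives were median centring, quantile normalization, a pseudocount of 0.1, no filter, a filter of 5 FPKM, the replicate block, each library left out and, added after seeing the data, the crossed pairing and leaving out loci listed at 0.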

Additional observations from a re-analysis of the deposited data

How the results depend on the processing

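The 2 higher Aux/IAA calls became 1 (iaa9) with median centring, quantile normalization and a pseudocount of 0.1, and 0 with no filter and with the replicate block. They were also 1 (iaa9) with the filter of 5 FPKM and with loci listed at 0 left out, 2 fits that left iaa20 untested. They ranged from 0 to 1 over the fits that leave out 1 library, and the 0 lower calls from 0 to 3 (3 without control 2). Over all tested loci, 691 higher and 202 lower calls became 381 and 68 with median centring, 393 and 87 with quantile normalization, and 2 and 0 with no filter. With a pseudocount of 0.1 they were 578 and 136. They were 738 and 246 of the 14629 loci tested with the filter of 5 FPKM. With loci listed at 0 left out they were 714 and 264 of 20708. Leaving out 1 library gave 0 to 816 higher and 0 to 484 lower, with 0 and 0 without CysNO 1, 1 and 0 without CysNO 2, 540 and 121 without control 1, and 816 and 484 without control 2. A lone library has no spread of its own, so these fits took it from the other group and from the trend over all loci. They had 1 residual degree of freedom. The prior degrees of freedom were 9.22 without control 1, 9.32 without control 2, 2.82 without CysNO 1 and 2.86 without CysNO 2. The 8 calls of the other auxin lists became 2 with median centring, 2 with quantile normalization, 4 with a pseudocount of 0.1, 0 with no filter, and 0 to 7 with a library left out. These lists had 8 calls with the filter of 5 FPKM and 6 with loci listed at 0 left out. The causes were not tested.

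The labels number the libraries 1 and 2 in each group and state no shared plant or day. Same-numbered libraries tended only weakly to deviate in opposite directions (correlation -0.186 over the tested loci). With the replicate block 53 loci were higher, 2 lower, and 1 of the other auxin lists' genes was called. The adjusted p of iaa9 was then 0.0727 (limma). With the numbers crossed, a pairing chosen after seeing the data, 6 Aux/IAA genes were higher and 3 lower, 16 genes of the other lists were called, and 1625 loci were higher and 1206 lower. That fit had 1 residual degree of freedom and infinite prior degrees of freedom. Each locus thus took its spread from the trend over all loci alone, and nothing is read from these counts.

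The log2 ratio of the family sums was 0.18 without iaa17 and -0.02 to 0.17 with a library left out. The crossed pairing aside, 19 of the 27 members had a value in all 11 other fits, and 14 of these kept their direction. The filter of 5 FPKM left out the other 8, and leaving out loci listed at 0 also left out iaa20; 7 of the 8 kept their direction in the 9 or more fits that held them. The 6 that did not had a log2 fold change of at most 0.20 in size. With a library left out, values ran from -0.45 to 0.35 for iaa6 (0.35 without control 1, 0.02 without CysNO 1), -0.29 to 0.26 for iaa7 (0.04 without control 2, 0.26 without CysNO 2), -0.39 to 0.08 for iaa10 (0.08 without control 1, 0.05 without CysNO 2), -0.41 to 0.00 for iaa17 (0.00 without CysNO 1), -0.22 to 0.07 for iaa28 on chromosome 7 (0.07 without control 1) and -0.33 to 0.22 for iaa30 (0.22 without control 2, 0.15 without CysNO 2). With quantile normalization iaa7 stood at 0.00. With 2 libraries a group and no read counts, small differences of low members such as iaa22 are not detectable.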
